A study of Homo sapiens with 8 samples.

Results

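The keratins are the intermediate filament proteins of epithelial cells, and their genes were followed here in 2 pancreatic ductal adenocarcinoma cell lines with and without siRNA against the homeobox gene HOXB7. A keratin was any gene probe on the arrays whose gene name was KRT followed by digits and at most 1 final letter, which leaves out the keratin-associated proteins. This gave 55 of the 27363 gene names, carried by 60 of 34127 gene probes and 96 of 43118 spots. All 60 probes matched a RefSeq accession of the same symbol. KRT8, KRT18, KRT23, KRT40 and KRT83 had 2 probes each and the other genes 1.

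RNA was measured on 8 one-colour arrays, 2 in each of 4 groups. MIA PaCa-2 is a human pancreatic carcinoma line and Capan-1 is a line from a liver metastasis of a pancreatic ductal adenocarcinoma. In each line, cells transfected with 10 nM HOXB7-specific siRNA by Lipofectamine and harvested at 48 h were set against untreated parental cells. No array of cells given a non-targeting siRNA was among the 8, so the effect of transfection itself cannot be told apart from that of the siRNA. The lines were kept in different media with different amounts of serum, and each line lay on 1 slide of its own, so that line, medium and slide cannot be told apart. Within a slide the siRNA arrays held the first 2 positions and the parental arrays the last 2, so position cannot be told apart from treatment. Nothing in the labels says that the 2 arrays of a group came from separate cultures, and the p-values then measure only the spread between arrays, which may be technical.

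Keratins fall into an acidic type I and a basic type II class, and a filament needs 1 partner of each. Their pairs mark the kind of epithelium: KRT8 with KRT18 in simple epithelia, joined by KRT7 and KRT19 in ducts such as those of the pancreas; KRT5 with KRT14 in the basal layer of stratified epithelia; KRT6 isoforms with KRT16 and KRT17 in wounded or fast-growing epithelium; and others in cornified layers, in the sheath of the hair root and in the hair shaft. Of the 55 genes, 29 were type I and 26 type II. In genome build hg18, 30 probes lay on chromosome 12, 27 on chromosome 17, and 3 (KRT39 and both KRT40 probes) on the unplaced chromosome 17 contigs.

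An array reads a keratin only through its 60-base probe, and many keratins are close relatives, so the probes behind the results below are shown, in the sense direction and with hg18 positions. The first group are probes for the simple-epithelial pair KRT8 and KRT18, for KRT23, which separated the lines most, and for 3 type I keratins of basal and activated epithelium. Those of KRT8, KRT18 and KRT16 cover more of the genome than their own length and so cross an intron.
KRT8, chr12:51580728-51581262, minus strand: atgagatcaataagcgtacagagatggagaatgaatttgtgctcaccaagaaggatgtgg
KRT18, chr12:51632383-51632821, plus strand: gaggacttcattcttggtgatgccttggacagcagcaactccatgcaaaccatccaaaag
KRT23, chr17:36335246-36335305, minus strand: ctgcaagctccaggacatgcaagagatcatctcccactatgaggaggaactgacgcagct
KRT14, chr17:36993539-36993598, minus strand: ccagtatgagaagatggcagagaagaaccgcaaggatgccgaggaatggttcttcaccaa
KRT16, chr17:37020742-37020890, minus strand: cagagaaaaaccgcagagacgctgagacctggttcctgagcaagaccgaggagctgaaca
KRT17, chr17:37030502-37030561, minus strand: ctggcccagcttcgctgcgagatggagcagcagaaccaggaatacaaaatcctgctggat
Among all 1770 pairs of keratin probes, 2 pairs overlapped without gaps over at least 30 bases at 75% identity or more. KRT6C and KRT75 shared 34 of 43 overlapping bases (79.1%), and the capitals below mark the 9 bases at which they differ. KRT33A and KRT33B, neighbouring hair keratins, shared 30 of 32 bases (93.8%), so a signal on one of this pair may include transcripts of the other.
KRT6C, chr12:51149918-51150591, minus strand: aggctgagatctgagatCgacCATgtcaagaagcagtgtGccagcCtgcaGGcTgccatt
KRT75, chr12:51108487-51108687, minus strand: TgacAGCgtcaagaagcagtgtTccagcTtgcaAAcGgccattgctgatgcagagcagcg

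Levels are given as log2 of the background-subtracted signal minus the 75th percentile of the gene probes on the same array, so that 0 is the signal of that percentile. They are compared only within a probe, since probes differ in how strongly they bind. A spot was called well above background by the scanner software, and a gene was taken as detected in a group when a probe of it had this call on both arrays. The call is lenient: the 7 immune-cell genes on the arrays that were looked at for comparison passed it on all 8 arrays. Between 69.25% and 74.34% of gene probes passed it on an array. No keratin spot was saturated.

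HOXB7 itself was measured by 1 probe. In MIA PaCa-2 it averaged -4.46 in parental cells and was not well above background on either siRNA array, which made it at least 2.81-fold lower (limma, adjusted p = 0.0129). With another background correction, normexp, the HOXB7 difference in this line was -0.10 and did not pass (limma, adjusted p = 0.596). Normexp as run here adds a constant to every signal, which shrinks any difference on a probe this dim. That result therefore cannot decide whether HOXB7 fell in MIA PaCa-2. The study itself reported less HOXB7 mRNA by real-time PCR and less protein by western blot after siRNA in both lines. The probe averaged -2.41 in parental and -5.03 in siRNA-treated Capan-1 cells, which gave -2.62 and did not pass (limma, adjusted p = 0.0892). The defining epithelial genes EPCAM and CDH1 were detected on all Capan-1 arrays and on no MIA PaCa-2 array, and both parental differences passed, EPCAM being at least 3850-fold and CDH1 at least 861-fold higher in Capan-1 (293-fold and 70.3-fold under normexp). VIM, the mesenchymal intermediate filament, ran the other way. Of the 8 ductal epithelial markers, 4 of which are keratins (KRT7, KRT8, KRT18 and KRT19), 6 were detected in parental MIA PaCa-2 and 8 in parental Capan-1. Of 8 mesenchymal markers, 3 (VIM, ZEB1, COL3A1) were higher in MIA PaCa-2 and 3 (CDH2, COL1A1, FN1) higher in Capan-1. Their median difference, MIA PaCa-2 minus Capan-1, was -0.14 as measured and 0.12 with 3 genes set at their limits. The log2 of the summed level of the 8 was 7.89 and 8.03 on the MIA PaCa-2 and 1.29 and 1.14 on the Capan-1 parental arrays. Such a sum adds signals of different probes, so the brightest genes set it. In MIA PaCa-2 the level of VIM alone came close to this sum. Of 8 squamous markers the same sum was 1.15 and 1.11 against 2.17 and 2.24, with KRT5, KRT14 and DSG3 not above background in MIA PaCa-2 and KRT5 and TP63 not above background in Capan-1. Of 7 acinar markers 3 (PRSS1, CELA3A, CELA3B) were higher in Capan-1, with sums of -3.15 and -2.83 in MIA PaCa-2 against 2.93 and 2.87, PRSS1 being at least 417-fold higher (32.3-fold under normexp), and CPA1, PNLIP and CTRB1 were above background on no array. Endocrine markers summed to -1.37 and -1.22 against -0.87 and -0.81 and immune markers to 2.35 and 2.28 against 0.77 and 0.79. The part of these markers in the keratin differences was not tested. In RNA of whole cultures, fewer cells of a type and less RNA per cell cannot be told apart.

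Detection differed between the lines for few keratins. In all 4 groups 27 of the 55 were detected, from the simple-epithelial KRT7, KRT8, KRT18, KRT19 and KRT20 to hair keratins such as KRT81, KRT85 and KRT86. Another 5, KRT6B, KRT14, KRT17, KRT23 and KRT222, were detected in both Capan-1 groups and in neither MIA PaCa-2 group, and of these KRT6B, KRT14, KRT23 and KRT222 were above background on no MIA PaCa-2 array. The reverse held for KRT28 and KRT71, keratins of the inner root sheath of the hair. Over all gene probes the same patterns took 59.7% (all 4 groups), 4.5% (Capan-1 alone) and 4.86% (MIA PaCa-2 alone). No group had a detected signal for 16 keratins, against 25.1% of all probes: KRT1, KRT2, KRT5, KRT12, KRT24, KRT25, KRT27, KRT37, KRT38, KRT40, KRT72, KRT75, KRT77, KRT79, KRT82 and KRT84. On no array at all were KRT2, KRT5, KRT12, KRT37, KRT38, KRT40, KRT72, KRT75 and KRT82 above background. KRT79 read -2.93 on replicate 2 of siRNA-treated MIA PaCa-2 and -7.62 on replicate 1, and was above background on that and on 1 Capan-1 siRNA array only. The remaining 5 genes, KRT6A, KRT6C, KRT34, KRT36 and KRT39, were detected in 1 to 3 groups.

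The parental lines were compared first, which asks which keratins the 2 tumour lines carried before any treatment. Capan-1 held more of most keratins that separated the lines: 18 genes were higher in Capan-1, 6 were higher in MIA PaCa-2 and 13 did not pass, of 37 that could be tested (limma on all 8 arrays, Benjamini-Hochberg adjusted p under 0.05 over all probes tested). Only probes with the background call on both arrays of either group entered the test. A keratin detected in a single parental line thus entered through the line where it was high, which nearly fixed its direction. Among the 18 this held for KRT6A, KRT6B, KRT6C, KRT14, KRT17, KRT23 and KRT222. Among the 6 it held for KRT28, KRT39 and KRT71. Of 40 keratin probes tested, 26 (65.0%) passed, beside 70.4% of all 24964 probes. By direction, 20 of the 40 keratin probes were higher in Capan-1 and 6 higher in MIA PaCa-2, beside 31.1% and 39.3% of all probes. The median difference, MIA PaCa-2 minus Capan-1, was -0.52 over the keratin probes and 0.11 over all probes. Type I and type II genes had 9 each among those higher in Capan-1, of 20 and 17 tested.

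**Figure D1:**
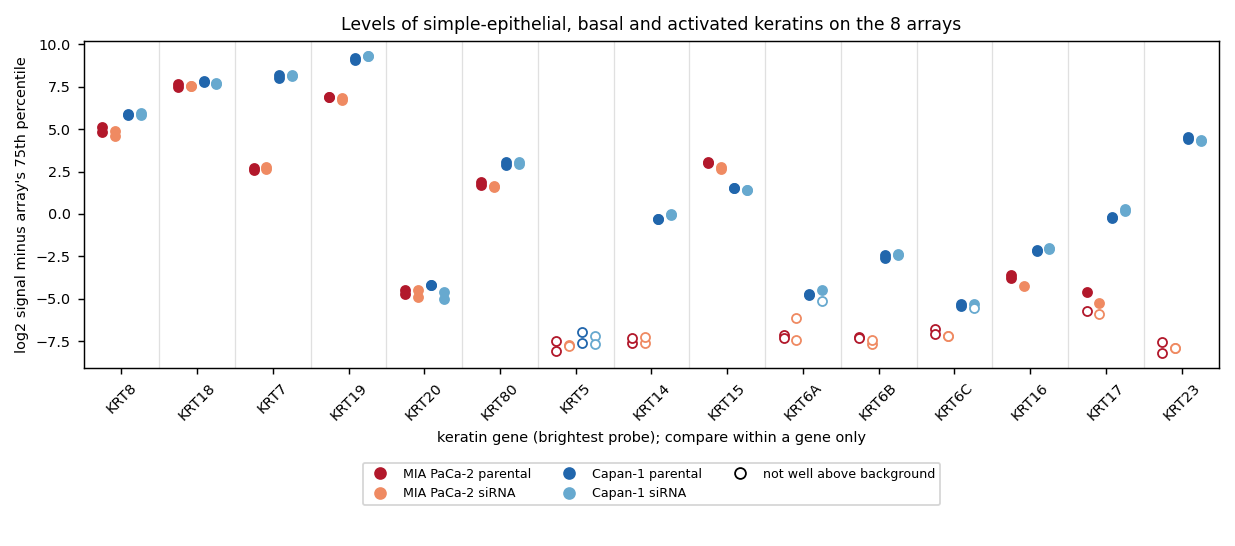
Log2 level of 15 keratin genes on each of the 8 arrays (y axis, log2 signal minus the array's 75th percentile; brightest probe of each gene on the x axis), coloured by line and treatment, with open points where the spot was not well above background. In each column the Capan-1 points of KRT7, KRT14, KRT6B, KRT17 and KRT23 sit above all MIA PaCa-2 points, KRT15 runs the other way, and KRT5 is open throughout.

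Simple-epithelial keratins were lower in MIA PaCa-2 for 5 of the 6 genes, and 1 did not pass, with a median difference of -1.56. KRT7, the type II keratin of ducts and glands, read 2.62 and 2.68 in parental MIA PaCa-2 and 8.18 and 8.01 in parental Capan-1. Both lines were thus far above background, and the arrays of the lines lay far apart. The difference of -5.44 (SE 0.097) was a 43.4-fold higher signal in Capan-1 (limma, adjusted p = 2.92e-07).

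KRT19, the type I keratin of pancreatic ducts, read 6.90 and 6.91 in MIA PaCa-2 and 9.18 and 9.10 in Capan-1. The groups did not overlap, and Capan-1 was higher by 2.23 on the log2 scale (MIA PaCa-2 minus Capan-1, -2.23, SE 0.081, limma adjusted p = 2.98e-06), or 4.70-fold. KRT8, the type II keratin common to simple epithelia, had values of 4.82 and 5.11 against 5.82 and 5.90 on its brighter probe. Its difference was smaller, -0.90 (SE 0.15, limma adjusted p = 0.00193), and its fainter, intron-crossing probe gave -1.18 (adjusted p = 0.0308). That second call was lost without any 1 of the 4 parental arrays, with adjusted p between 0.0731 and 0.127.

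KRT18, the type I partner of KRT8, read 7.50 and 7.68 in MIA PaCa-2 and 7.82 and 7.77 in Capan-1. Here the lines lay close together: the brighter probe gave -0.21 (95% interval -0.43 to 0.01, limma adjusted p = 0.0792) and did not pass. A fainter probe, with 5.96 and 6.08 against 6.58 and 6.51, gave -0.52 (adjusted p = 0.00333), and the gene counts among the 18 through that probe alone. KRT20, a keratin of intestinal epithelium, was dim in both lines at -4.70 and -4.48 against -4.21 on both arrays, and did not pass (adjusted p = 0.152).

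KRT23, a type I keratin found in several gland and gut tumours, separated the lines most. Parental Capan-1 read 4.53 and 4.45, while parental MIA PaCa-2 read -8.21 and -7.54, not well above background. The measured difference of -12.36 therefore has only a lower limit as a fold: at least 1430-fold higher in Capan-1 (limma, adjusted p = 2.71e-07). A limit of this kind sets the bright group's mean against the lowest signal that counted as well above background on the dim group's arrays, or the probe's own signal where that was higher. These limits rest on the background subtraction of the scanner software. Normexp, which adds an offset of 50 to every signal, gave a fold under the limit for all 9 keratin probes, the 20 probes of other genes in the lists and the HOXB7 probe that passed with such a limit, each in the same direction. The offset shrinks differences between dim signals, so a call lost under normexp does not decide against a difference there. For KRT23 normexp gave 115-fold (-6.84, limma adjusted p = 1.98e-14). The second KRT23 probe, printed above, read 2.66 and 2.70 in Capan-1 against -6.61 and -5.89 in MIA PaCa-2, at least 411-fold (adjusted p = 1.43e-05). On the siRNA arrays both probes kept the same split, with 4.28 and 4.34 in Capan-1 and -7.88 and -7.90 in MIA PaCa-2 on the brighter one.

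Basal and activated keratins had 7 of their 8 genes tested, of which 6 were higher in Capan-1 and KRT15 alone was higher in MIA PaCa-2. KRT6A, KRT6B, KRT6C, KRT14 and KRT17 entered the test only through Capan-1, the line in which they were high. Their direction was thus nearly fixed by the filter, and the count is no separate support for it. Only KRT15 and KRT16 of this list were detected in both parental lines. The median difference was -1.54 with the 4 genes that were not above background in MIA PaCa-2 set at their limits, and -2.50 as measured. KRT14, the type I keratin of the basal layer, read -0.28 on both parental Capan-1 arrays and -7.60 and -7.32, below the background call, in MIA PaCa-2. It was at least 52.6-fold higher in Capan-1 (limma, adjusted p = 5.23e-07), but 4.45-fold under normexp. Its usual type II partner KRT5 was above background on no array of either line, with parental values from -8.10 to -6.95.

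KRT17, an activation keratin of type I, read -0.24 and -0.17 in Capan-1 and -4.58 and -5.73 in MIA PaCa-2, where 1 of the 2 arrays was above background. The MIA PaCa-2 arrays differed by more than a log2 unit from each other, yet stayed well below both Capan-1 arrays, and the difference was -4.95 (SE 0.39, limma adjusted p = 7.42e-05). KRT6B, a type II activation keratin, read -2.58 and -2.43 against -7.23 and -7.33, at least 11.2-fold higher in Capan-1 (limma, adjusted p = 5.23e-07), but 1.72-fold under normexp. Its near-identical relatives were dimmer. KRT6A read -4.77 and -4.71 against -7.16 and -7.33, at least 2.39-fold (adjusted p = 0.00223), and KRT6C -5.32 and -5.42 against -6.81 and -7.10, at least 1.54-fold (adjusted p = 8.29e-05). The 3 KRT6 genes share most of their coding sequence, so their separate signals are uncertain, and under normexp KRT6A was 1.19-fold higher and the KRT6C difference was -0.10 (adjusted p = 0.406).

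KRT16, the type I partner of the KRT6 proteins, read -2.17 and -2.11 in Capan-1 and -3.59 and -3.76 in MIA PaCa-2. All 4 arrays were above background and the lines did not overlap, with a difference of -1.54 (SE 0.10, limma adjusted p = 9.71e-05). The fit left out 1 KRT16 spot, on replicate 1 of siRNA-treated MIA PaCa-2, that the scanner software had marked as an outlier; with it kept, the adjusted p of the line difference was 0.246. KRT15, a keratin of basal and progenitor cells, read 3.06 and 2.99 in MIA PaCa-2 against 1.56 and 1.55 in Capan-1. It was 2.77-fold higher in MIA PaCa-2 (difference 1.47, SE 0.082, adjusted p = 1.69e-05).

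**Figure D2:**
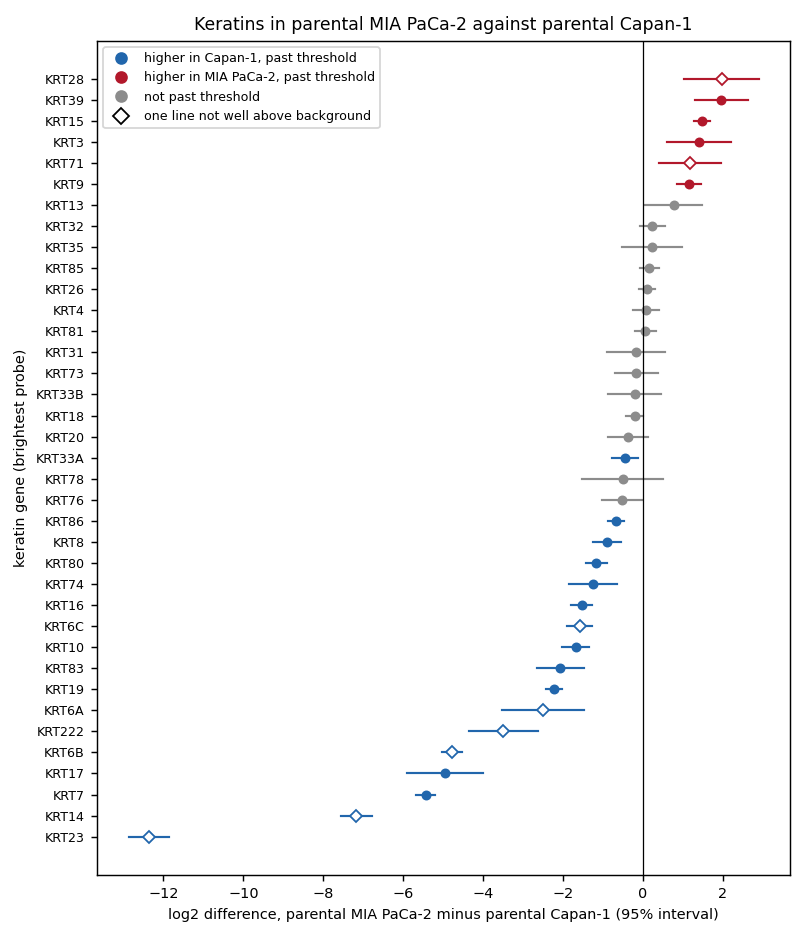
Log2 difference, parental MIA PaCa-2 minus parental Capan-1 (x axis), with its 95% interval from limma for the brightest probe of the 37 keratins tested (y axis), coloured by direction and call, with open diamonds where one line was not well above background on either array. The points run from -12.36 for KRT23 to 1.97 for KRT28, and 6 of the coloured points lie right of 0; KRT18 is grey because its brightest probe did not pass.

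The list of keratins of differentiated stratified epithelia, in which KRT222 and KRT80 were also placed, was split. Of 9 tested, 3 (KRT10, KRT222 and KRT80) were higher in Capan-1, 2 higher in MIA PaCa-2 and 4 did not pass. KRT222, a short keratin-like protein, read -2.97 and -3.03 in Capan-1 and was not above background in MIA PaCa-2 at -6.82 and -6.16, at least 8.0-fold lower there (limma, adjusted p = 0.000218), but 1.53-fold under normexp. KRT10, the type I keratin of the suprabasal epidermis, was detected in both lines, at 4.69 and 4.42 in Capan-1 and 2.89 and 2.87 in MIA PaCa-2. Its difference was -1.68 (SE 0.14, adjusted p = 8.97e-05), although its type II partner KRT1 was above background on 1 of the 8 arrays. KRT80, found in many epithelia, was higher in Capan-1 as well (-1.17, SE 0.11).

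In the other direction KRT3, a corneal keratin of type II, read -0.19 and -0.23 in MIA PaCa-2 and -1.68 and -1.55 in Capan-1, a difference of 1.40 (SE 0.33, limma adjusted p = 0.00872). Its type I partner KRT12 was above background on no array. KRT9, a keratin of palm and sole skin, read -2.21 and -2.18 against -3.51 and -3.18, a difference of 1.15 (SE 0.12, adjusted p = 0.000277). KRT13, of the mucosal epithelia, had -1.75 and -2.14 against -3.08 and -2.35 and fell just short (0.77, adjusted p = 0.0528). Its type II partner KRT4 differed by 0.09 (95% interval -0.24 to 0.41). KRT76 and KRT78 did not pass either.

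Keratins of the inner root sheath and companion layer had 5 of 9 genes tested, with 2 higher in MIA PaCa-2, 1 higher in Capan-1 and 2 that did not pass. KRT28 read -5.04 and -5.12 in MIA PaCa-2 and -7.55 and -6.56 in Capan-1, where it was not above background, which makes it at least 1.77-fold higher in MIA PaCa-2 (limma, adjusted p = 0.0041). KRT71 read -4.21 and -4.65 against -5.25 and -5.97, at least 2.26-fold (adjusted p = 0.0156). Both signals were close to background: under normexp neither passed, at 0.21 and 0.12, and KRT71 did not pass without replicate 1 of parental MIA PaCa-2 (adjusted p = 0.0821) or replicate 2 of parental Capan-1 (adjusted p = 0.0754). KRT74 was higher in parental Capan-1, with -3.25 and -3.81 against -4.99 and -4.57 (difference -1.25, SE 0.25, adjusted p = 0.00432).

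Hair-shaft keratins had 10 of 17 genes tested, 3 of them higher in Capan-1, 1 higher in MIA PaCa-2 and 6 not past the threshold. KRT83 read 3.49 and 3.62 in Capan-1 and 1.34 and 1.63 in MIA PaCa-2, a difference of -2.07 (SE 0.24, limma adjusted p = 0.000417). Its second probe was above background on 1 of the 8 arrays, at levels from -6.79 to -5.24, so that the probes of this gene disagree on whether it was detected. KRT81, KRT83 and KRT86 are near-identical relatives, so the signal of the brighter probe is uncertain. KRT86 differed by -0.68 (SE 0.081) in the same direction, while KRT81 gave 0.06 (95% interval -0.21 to 0.33). KRT39 read -2.82 and -2.64 in MIA PaCa-2 and -5.13 and -4.26 in Capan-1, where 1 of 2 arrays was above background, a difference of 1.96 (SE 0.27, adjusted p = 0.000948). KRT33A gave -0.45 (adjusted p = 0.0221), a call that was lost under normexp, under quantile normalization, with no scaling between arrays and without 3 of the 4 parental arrays (replicate 1 of MIA PaCa-2 and both of Capan-1), with adjusted p from 0.0673 to 0.0993. The other keratins that did not pass were KRT26, KRT31, KRT32, KRT33B, KRT35, KRT73 and KRT85.

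The same comparison was then made between the siRNA-treated arrays of the lines. It was added after the parental results had been seen. Its group means share no array with those of the parental comparison, but the slides were the same. The SE and p-values of both comparisons draw on the spread in the same fit of all arrays, so their calls are not independent. Of 37 keratins tested on the siRNA-treated arrays, 16 were higher in Capan-1 and 10 higher in MIA PaCa-2 (limma). By probe, 18 and 10 of 40 passed in these directions, beside 30.2% and 40.2% of all probes and 70.4% in either. Of the 26 probes that passed between the parental lines, 24 could be tested again and 23 (95.8%) passed in the same direction, beside 89.6% of the 17404 probes of any gene for which this could be asked. The exception was KRT74, at -3.83 and -3.51 in siRNA-treated MIA PaCa-2 against -3.69 and -3.95 in siRNA-treated Capan-1, a difference of 0.15 (adjusted p = 0.595). KRT6A and KRT6C could not be tested again, since 1 of the 2 Capan-1 siRNA arrays had lost the background call for each. KRT7 repeated almost exactly, at -5.45 (SE 0.097) beside -5.44. KRT13, KRT36, KRT81 and KRT85 were higher in MIA PaCa-2, and KRT34 higher in Capan-1, on the siRNA-treated arrays and not on the parental ones, and whether these differences changed was tested only by the difference of the siRNA effects below.

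**Figure D3:**
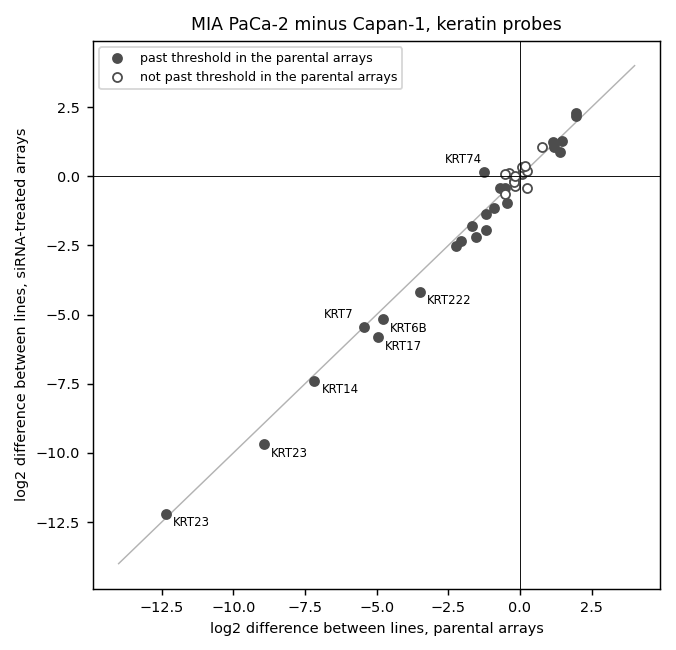
Log2 difference MIA PaCa-2 minus Capan-1 of each keratin probe tested in both, on the parental arrays (x axis) and on the siRNA-treated arrays (y axis); filled points passed on the parental arrays and the line marks equal values. KRT74 is the filled point above 0 on the y axis and below 0 on the x axis, at 0.15 and -1.25.

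HOXB7 siRNA was set against parental cells within each line to ask whether keratins moved with it. In MIA PaCa-2 none of 31 keratins tested passed (limma, smallest adjusted p = 0.0735), where 2.72% of all probes passed. Without adjustment 4 of the 33 keratin probes had a p under 0.05, beside 21.3% of all probes. Of these 4, 3 were lower after siRNA. The differences ran from -0.69 to 1.11 around a median of -0.03, and the arrays of the treatments did not overlap for 43.8% of keratin probes read on every array, beside 51.3% of all probes. For 27 of the 33 probes the 95% interval lay within 1 log2 unit either side of 0.

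The simple-epithelial keratins stayed within narrow intervals in MIA PaCa-2. KRT7 read 2.67 and 2.77 after siRNA beside the parental 2.62 and 2.68 (difference 0.07, 95% interval -0.16 to 0.30). KRT19 read 6.83 and 6.73 beside 6.90 and 6.91 (-0.12, interval -0.32 to 0.07), and KRT18 7.54 and 7.55 beside 7.50 and 7.68 (-0.04, interval -0.26 to 0.17). A fold change of 2 lies outside each of these intervals. KRT8 gave -0.20 (interval -0.56 to 0.15) on its brighter probe, while its fainter probe read -1.45 and -0.21 on the siRNA arrays and had a wide interval (-1.51 to 0.32). Without replicate 2 of siRNA-treated MIA PaCa-2 that fainter probe gave -1.22 and passed (adjusted p = 0.0381), a fit in which the lone siRNA array is taken to vary like the other groups.

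By size on the brightest probe, the leading keratins in MIA PaCa-2 were KRT74, KRT35, KRT16, KRT78 and KRT76. This ranking holds only keratins above background on all 4 arrays of the line. It leaves out KRT36, at 0.57 (limma, adjusted p = 0.602), which was above background on 1 parental array. KRT74, an inner root sheath keratin, read -3.83 and -3.51 after siRNA and -4.99 and -4.57 before. The groups did not overlap, and the rise of 1.11 (SE 0.24) fell short after adjustment (limma, adjusted p = 0.0735). It passed when only probes above background on all 8 arrays were tested (adjusted p = 0.0466) and where the fit let the spread follow intensity (adjusted p = 0.0477). KRT35 gave -0.69 (adjusted p = 0.262), with siRNA values of -3.98 and -4.97 below the parental -3.92 and -3.65. KRT78 gave 0.47 and KRT76 0.43, with adjusted p of 0.566 and 0.289.

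KRT16 rested on 1 siRNA array in MIA PaCa-2, at -4.27 against the parental -3.59 and -3.76 (-0.59, limma adjusted p = 0.0793), and with the marked spot kept the difference turned to 1.28 (adjusted p = 0.545). KRT15, the basal keratin that was higher in this line, read 2.75 and 2.63 after siRNA and 3.06 and 2.99 before. Its treated arrays lay below both parental ones, a difference of -0.33 (SE 0.081, adjusted p = 0.0902). KRT15 passed under normexp at -0.42 (adjusted p = 0.0177) and where the spread followed intensity (adjusted p = 0.0349), and was the keratin lower in MIA PaCa-2 under both.

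In Capan-1 none of 36 keratins tested passed (limma, smallest adjusted p = 0.323), beside 0.00428% of all probes, which is 1 probe of 23367. Without adjustment 1 of 39 keratin probes had a p under 0.05, beside 13.2% of all probes. The differences ran from -0.66 to 0.61 around a median of -0.05 (all probes 0.00), the treatments did not overlap for 44.7% of keratin probes read on every array beside 54.2% of all probes, and for 31 of 39 probes the 95% interval lay within 1 log2 unit of 0. With spike-in scaling the median of the keratins was -0.41 and that of all probes -0.36, and with no scaling they were -0.21 and -0.16. Among the keratins that marked Capan-1, KRT7 gave 0.08 (interval -0.16 to 0.31), KRT19 0.18 (interval -0.02 to 0.37), KRT14 0.23 (interval -0.15 to 0.62) and KRT23 -0.18 (interval -0.68 to 0.32). KRT6B read -2.38 and -2.42 after siRNA beside -2.58 and -2.43 before, so that the groups lay next to each other without overlap.

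The leading keratins by size in Capan-1, among those above background on all 4 arrays of the line, were KRT13, KRT78, KRT20, KRT3 and KRT17. KRT20 read -5.03 and -4.58 after siRNA and -4.21 on both parental arrays (-0.59, SE 0.20, limma adjusted p = 0.323), and under normexp this turned to 0.08. KRT13 gave -0.66 (adjusted p = 0.391), with treated values of -3.20 and -3.56 below both parental values. KRT78 and KRT3 were each carried by 1 siRNA array: KRT78 read -0.70 and -2.04 beside -1.93 and -2.03, and KRT3 -1.57 and -0.48 beside -1.68 and -1.55. Without replicate 1 of siRNA-treated Capan-1 the KRT78 difference turned from 0.61 to -0.06, while the KRT3 difference went from 0.58 to 1.13 and passed (adjusted p = 0.0467). That fit holds the 1 siRNA array that carried the KRT3 difference and takes its spread from the other groups. KRT17 gave 0.45 (SE 0.39, adjusted p = 0.645), with 0.31 and 0.18 beside -0.24 and -0.17.

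**Figure D4:**
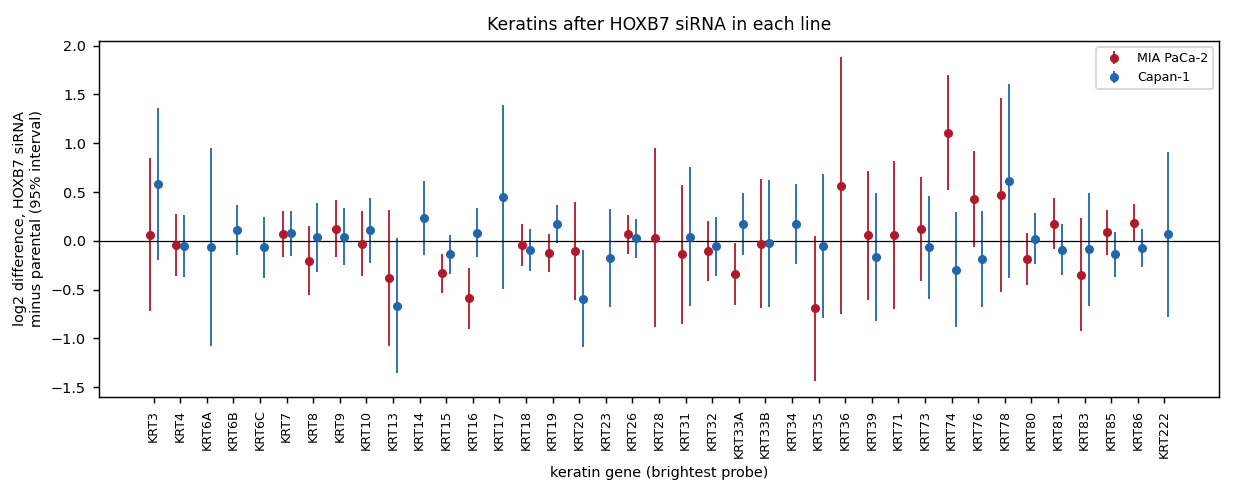
Log2 difference, HOXB7 siRNA minus parental (y axis), with its 95% interval from limma, for the brightest probe of each keratin tested in MIA PaCa-2 (red) or Capan-1 (blue); KRT16 in MIA PaCa-2 rests on 1 siRNA array. The points lie between -0.69 and 1.11, no keratin passed after adjustment, and KRT74 in MIA PaCa-2 stands highest.

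Whether the siRNA effect differed between the lines was tested by the difference of the effects, MIA PaCa-2 minus Capan-1. None of 39 keratins passed (limma, smallest adjusted p = 0.264), beside 0.00783% of all probes. An unadjusted p under 0.05 was found for 5 of 42 keratin probes, beside 11.1% of all probes. For 9 of the 39 genes 1 of the effects lay between signals below background: KRT6A, KRT6B, KRT6C, KRT14, KRT23, KRT34 and KRT222 were above background on no MIA PaCa-2 array and KRT28 and KRT36 on no Capan-1 array. Of the 39, 28 had been tested in both lines, and 4 of their 30 probes had an unadjusted p under 0.05. Among these 28 the smallest p belonged to KRT74, at 1.40 (SE 0.35, adjusted p = 0.264), followed by KRT16 at -0.67, which rests on the single array named above, then KRT33A and KRT19. Each group held 2 arrays, and an exact two-sided permutation test of 2 against 2 cannot go below p = 0.33, so the adjusted p-values depend on the spread that limma shares over all probes.

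Keratin filaments end on desmosomes and hemidesmosomes, and the genes of these junctions were also compared between the parental lines. The counts of the lists below stand beside 31.1% of all probes higher in Capan-1 and 39.3% higher in MIA PaCa-2, and a gene with several probes had more than 1 chance to pass. A gene detected in a single parental line entered the test through that line, which nearly fixed its direction. Of 12 desmosome genes tested, 8 were higher in Capan-1, 1 higher in MIA PaCa-2 and 3 did not pass (median -1.73, or -1.62 with 3 genes at their limits). The desmosomal cadherin DSG3 was at least 6.02-fold higher in Capan-1 (1.47-fold under normexp) and not above background in MIA PaCa-2. JUP, the plakoglobin that joins cadherins to the plaque, differed by -3.34 (SE 0.15, limma adjusted p = 7.18e-06), and DSC2 and DSG2 by -2.60 and -2.19. DSG1, a cadherin of the upper epidermis, was the gene higher in MIA PaCa-2, by at least 2.32-fold (adjusted p = 0.00231), and did not pass under normexp (adjusted p = 0.11).

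Of 10 genes for plakins and hemidesmosomes, 5 were higher in Capan-1, 3 higher in MIA PaCa-2, 1 did not pass, and DST had probes that passed in both directions. The linker proteins PPL, EPPK1 and PLEC differed by -5.84, -3.97 and -2.12, and the integrin subunit ITGA6 by -2.80. COL17A1, the hemidesmosomal collagen, was detected in MIA PaCa-2 and not in Capan-1, at least 69.8-fold higher (limma, adjusted p = 4.57e-06), but 5.72-fold under normexp. EVPL, another plakin, was higher in MIA PaCa-2 by 0.56, and ITGB4, an integrin subunit of hemidesmosomes, by 1.00.

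Other intermediate filament genes went mostly the other way: 8 of 12 tested were higher in MIA PaCa-2, 1 higher in Capan-1 and 3 did not pass (median 0.86). VIM, of mesenchymal cells, averaged 7.94 on the MIA PaCa-2 arrays against -1.06 on those of Capan-1, higher by 9.0 (SE 0.12, limma adjusted p = 1.69e-07). BFSP1, a filament gene of the eye lens, differed by 3.25, SYNM by 2.05 and the nuclear lamin LMNB1 by 2.04. PRPH, of peripheral neurons, was higher in Capan-1 (-1.19).

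Among 16 transcription factors known to act on keratin genes or epithelial identity, 11 were higher in Capan-1, 2 higher in MIA PaCa-2 and 1 did not pass, and GRHL1 and GRHL2 had probes in both directions. OVOL1, a repressor that keeps epithelial cells epithelial, was at least 121-fold higher in Capan-1 (limma, adjusted p = 5.16e-07; 11.4-fold under normexp), KLF5 differed by -8.09 with 1 of 2 MIA PaCa-2 arrays above background, and OVOL2 and ELF3 differed by -3.89 and -3.50. TFAP2A and TP63, the latter the master factor of basal keratinocytes, were higher in MIA PaCa-2, by at least 61.0-fold and at least 6.74-fold (6.54-fold and 1.54-fold under normexp), and TP63 was not above background in parental Capan-1, the line with KRT14, KRT6B and KRT17.

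**Figure D5:**
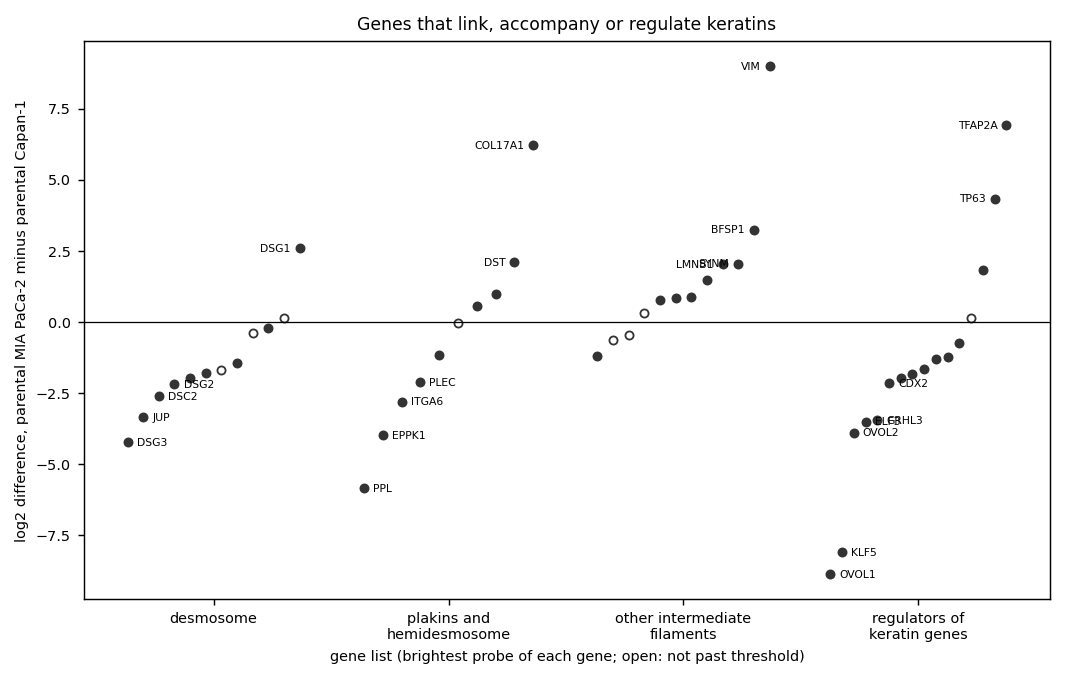
Log2 difference, parental MIA PaCa-2 minus parental Capan-1 (y axis), of genes in 4 lists (x axis), brightest probe of each gene, filled where the limma adjusted p was under 0.05. Desmosome genes lie mostly below 0, other intermediate filament genes mostly above 0 with VIM at 9.0, and OVOL1 and KLF5 lie lowest among the regulators.

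After HOXB7 siRNA in MIA PaCa-2, 3 of the 44 genes tested of these 4 lists passed, where 2.72% of all probes did. ITGA6 was higher by 0.82 (SE 0.12, limma adjusted p = 0.0304), ELF3 lower at -0.93 (SE 0.12, adjusted p = 0.026) and BFSP1 lower at -0.42 (adjusted p = 0.0492). In Capan-1 none passed, of 11 desmosome, 9 plakin and hemidesmosome, 12 other filament and 14 regulator genes tested (limma).

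Promoter sequences of RefSeq (build GRCh38.p14) were at hand for 34 of the 55 keratin genes, 38 promoters in all, and the 250 bases before the start were searched on both strands for TATAAA, the core of the TATA box. It occurred in 55.3% of the keratin promoters and in 10.7% of all 35116. Among keratins that differed between the parental lines, promoters were at hand for 5 of the 6 higher in MIA PaCa-2 and 4 of the 18 higher in Capan-1. KRT7, KRT14, KRT17, KRT19 and KRT23 were not among these. The letters were held by 4 of the 5 and by 2 of the 4, so they were found in both directions. No match here says only that these letters are not in the window. KRT10, higher in Capan-1, and KRT28, higher in MIA PaCa-2, lie close to each other on chromosome 17 and are shown with the match in capitals, which begins 29 and 28 bases before the start.
KRT10, chr17:40822615-40822864, minus strand: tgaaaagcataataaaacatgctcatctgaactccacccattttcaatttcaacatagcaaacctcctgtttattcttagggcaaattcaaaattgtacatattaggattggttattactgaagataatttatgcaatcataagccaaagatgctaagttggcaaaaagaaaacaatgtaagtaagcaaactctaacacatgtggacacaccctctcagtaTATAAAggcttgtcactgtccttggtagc
KRT28, chr17:40799960-40800209, minus strand: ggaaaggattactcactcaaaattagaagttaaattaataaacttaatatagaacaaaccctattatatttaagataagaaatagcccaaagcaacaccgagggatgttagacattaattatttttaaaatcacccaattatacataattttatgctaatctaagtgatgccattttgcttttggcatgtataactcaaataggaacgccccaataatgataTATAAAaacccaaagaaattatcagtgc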

How the data were processed

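Total RNA was labelled with Cy3 and hybridised to one-colour 4x44K arrays. The authors extracted spot intensities with Agilent Feature Extraction 9.5.3 (per the labels) and deposited them per array, with background calls and outlier flags; the processed intensity was background-subtracted and not scaled between arrays. They also deposited a value table, which equals the log2 of that intensity to within 3.5e-08. Groups came from the sample titles.

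Spots marked as outliers were left out (13 of 768 keratin measurements), log2 intensities were averaged per probe, and each array's 75th percentile over gene probes was subtracted. limma 3.58.1 (R 4.3.3) fitted 4 group means to all 8 arrays; contrasts were tested two-sided with Benjamini-Hochberg adjustment over all probes tested, threshold 0.05. A gene counted as higher or lower when at least 1 probe passed and none passed the other way, and its value is that of its brightest probe. The fit was tested on simulated data first. Precision is limited by 2 arrays per group. A 99% interval from the spread of the parental arrays, in windows of 1001 probes, was an alternative; it follows only the interval of the study's rule, with a window chosen here and without its demands on the number and agreement of probes per gene, beside other background, scaling, filter, fit and probe choices and leaving out each array.

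Named were every keratin past the threshold, the 5 largest siRNA differences in each line among keratins above background on all 4 arrays, and up to 4 genes per direction of the other lists. The members and lists were chosen with earlier results of these data known. Replicate numbers did not pair the arrays (correlation of the replicate differences 0.0232 for MIA PaCa-2, 0.0377 for Capan-1). Promoters and names came from RefSeq tables (GRCh38.p14), probe positions (hg18) and sequences from the deposited scans.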

Additional observations from a re-analysis of the deposited data

How the results depend on the processing

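Across the alternatives the parental comparison gave 4 to 9 keratin genes higher in MIA PaCa-2 and 12 to 21 higher in Capan-1. On the siRNA-treated arrays in place of the parental ones, an alternative chosen after seeing the data, 10 genes were higher in MIA PaCa-2. Leaving out 1 array at a time gave 5 to 7 and 17 to 20 genes. The siRNA comparison in MIA PaCa-2, with 0 keratins in either direction, gave 1 lower (KRT15) under normexp background correction, 1 higher (KRT74) when only probes above background on all 8 arrays were tested, 1 higher and 1 lower (the same 2 genes) with an intensity trend in the spread, and 0 to 1 lower without 1 array, the 1 without siRNA replicate 2. In Capan-1 it gave 0 to 1 higher without 1 array, the 1 without siRNA replicate 1, and 0 under every other alternative. The difference of the effects gave 0 under every alternative run; a fit of 4 arrays alone cannot give it. With the replicate block the parental counts were 6 and 19 and the siRNA counts 0, and the block moved no count by over 1.5 times.

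Of 26 named parental probes, 20 passed in the same direction under every alternative that tested them, and none reversed. Not every alternative tested all of the 20. Those for KRT6A, KRT6B, KRT14, KRT17, KRT23, KRT39 and KRT222 were not above background on every array. The filter that asked for this call on every array thus left them out. The fainter KRT18 and KRT23 probes were also left out when only the brightest probe of each gene was used. Under normexp 16 of the 26 were over 1.5 times smaller, among them KRT23 (-6.84), KRT14 (-2.15), KRT17 (-2.15), KRT6B (-0.78) and KRT222 (-0.61), all dim in MIA PaCa-2; KRT7 (-5.27) and KRT19 (-2.06) moved little. Of 10 named siRNA values, 7 kept their direction. KRT16 in MIA PaCa-2 turned to 1.28 with outlier spots kept, and in Capan-1 KRT78 turned to -0.0595 without siRNA replicate 1 and KRT20 to 0.0784 under normexp; the cause was not tested. Scaling to the spike-in probes moved the median of all probes from 0.11 to -0.06 between the parental lines and from 0.00 to -0.36 for siRNA in Capan-1, and the keratin medians moved with it, to -0.69 and -0.41. With no scaling the median of all probes was -0.19 for siRNA in MIA PaCa-2 and -0.16 for siRNA in Capan-1.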
